A study of Homo sapiens with 3 samples.

Results

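The genes examined here were the coactivators YAP1 and WWTR1 (the gene of TAZ), the DNA-binding factors TEAD1 and TEAD4, the regulators LATS2, AMOTL2 and AJUBA, and the secreted or nuclear targets CCN1, CCN2 and ANKRD1. They are 10 of 19775 genes that the array's annotation names through probe sets of a single gene, and they are covered by 24 of 54613 non-control probe sets. All probe sets annotated to any of the 10 genes were taken, whatever their values. The 10 genes themselves were chosen with earlier results of these data known. Cells of SK-Mel-28, an established human melanoma line, were stably transfected with the vector pSilencer 3.1-H1 neo. In the MTf siRNA group (2 arrays) the vector carried a hairpin against melanotransferrin (gene MELTF), and in the scrambled group (1 array) it carried a scrambled insert. Both groups therefore carry the same vector backbone in the same line. The siRNA arrays are called siRNA array 1 (B1 in the labels) and siRNA array 2 (B2). The labels do not say whether B1 and B2 are separate clones, pools or cultures, and p-values therefore reflect the spread of these arrays alone, which may be technical. The comparison asks which transcripts differ in the cells with the MELTF hairpin.

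YAP1 and WWTR1 have no DNA-binding domain of their own and act on genes by binding TEAD proteins, which recognise the sequence GGAATG. The Hippo kinases LATS1 and LATS2 phosphorylate both coactivators and keep them in the cytoplasm, and angiomotins such as AMOTL2 hold them there or at cell junctions. CCN1, CCN2, ANKRD1, AMOTL2 and LATS2 are widely used as readouts of YAP activity, and the last 2 also restrain it. In melanoma this pathway has been linked to invasive, less differentiated cell states.

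Promoter sequence is shown for a target that fell (AMOTL2) and for the target with the most TEAD motifs near its start (CCN2). CCN1, TEAD1 and TEAD4 had no entry in the promoter table. Sequences are the 250 bases before an annotated start, from RefSeq on GRCh38.p14, 5′ to 3′ on the gene's strand. Capitals mark GGAATG or its reverse complement CATTCC. The CCN2 window is chr6:131951373-131951622 (minus strand), and the AMOTL2 window, before the downstream one of its 2 annotated starts, is chr3:134374448-134374697 (minus strand).
CCN2: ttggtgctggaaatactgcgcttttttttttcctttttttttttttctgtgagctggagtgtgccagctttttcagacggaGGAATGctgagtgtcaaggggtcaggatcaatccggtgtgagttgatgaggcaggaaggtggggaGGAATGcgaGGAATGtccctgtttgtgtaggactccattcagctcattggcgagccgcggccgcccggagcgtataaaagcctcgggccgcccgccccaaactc
AMOTL2: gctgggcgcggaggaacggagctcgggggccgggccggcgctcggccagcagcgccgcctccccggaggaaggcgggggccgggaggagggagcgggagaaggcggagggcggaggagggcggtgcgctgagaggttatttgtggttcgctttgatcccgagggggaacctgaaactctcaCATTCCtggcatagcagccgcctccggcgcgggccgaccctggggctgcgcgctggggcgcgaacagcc
CCN2 holds 3 matches, whose first bases lie 169, 104 and 95 bases before the start. AMOTL2 holds 1 match 69 bases before this start and none before the other. Of the 10 windows of 7 of these genes in the table, 5 held a match, in CCN2, AMOTL2, ANKRD1 (2 matches), YAP1 and AJUBA. Among 35116 windows of the same length across the genome 11.9% held one. None of the 10 windows held the AP-1 motif TGAGTCA or its reverse complement TGACTCA, which 4.2% of all windows held. A match is a description of the letters in these windows and was not set against the expression data.

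The siRNA target itself was not uniformly lower. MELTF read 18968 and 18974 in its brightest probe set on the siRNA arrays, against 32608 on the scrambled array (log2 difference -0.78 ± 0.17, SE; limma adjusted p = 0.0699), and its other probe sets differed by between -0.95 and 0.39, none past the threshold. Directions are therefore those of the arrays labelled siRNA.

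CCN1 and AMOTL2 fell in the siRNA cells to between 26.1% and 42.5% of the scrambled signal, while YAP1 read between 86.0% and 102.6% of it. CCN2, LATS2, AJUBA, TEAD1 and WWTR1 were dimmer on both siRNA arrays in their brightest probe sets without passing the test. TEAD4 was brighter on both without passing. Values are deposited signals on a linear scale, from RNA of whole cultures, so fewer expressing cells and less RNA per cell cannot be told apart. The test was limma on log2(signal + 47.4), with siRNA minus scrambled as the difference, and adjusted p-values (Benjamini-Hochberg, two-sided) run over all 27306 probe sets past a filter on dim signals. Of the 24 probe sets 20 passed the filter, covering 9 genes, and the other 4 are given by their signals alone. Those past the filter included 3 called lower and 0 called higher at an adjusted p under 0.05, against 0.905% of all 27306 called lower and 1.19% called higher (2.09% in all). The same 3 were at least 2-fold lower on both siRNA arrays, which 1.83% of all probe sets were, and 0 were at least 2-fold higher on both, against 3.93%. Among the 20, 7 had an unadjusted p under 0.05, against 20.2% of all probe sets. The median difference of the 20 was -0.50 on the log2 scale (-0.25 on siRNA array 1 and -0.52 on siRNA array 2), beside 0.11 over all probe sets past the filter (0.087 and 0.13). With arrays centred on their medians over all probe sets the differences were -1.57 and -1.55 for CCN1 and -1.92 for AMOTL2. With quantile normalization they were -1.35 and -1.43 for CCN1 and -1.72 for AMOTL2, and only AMOTL2 stayed called. The number called lower was 0 with dim probe sets kept, with the filter at the 75th percentile and with no trend in the model. Because probe sets of a gene share its RNA, they do not count as separate observations. The genes were chosen with earlier results known, so the shares beside those of all probe sets are a description only.

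**Figure D1:**
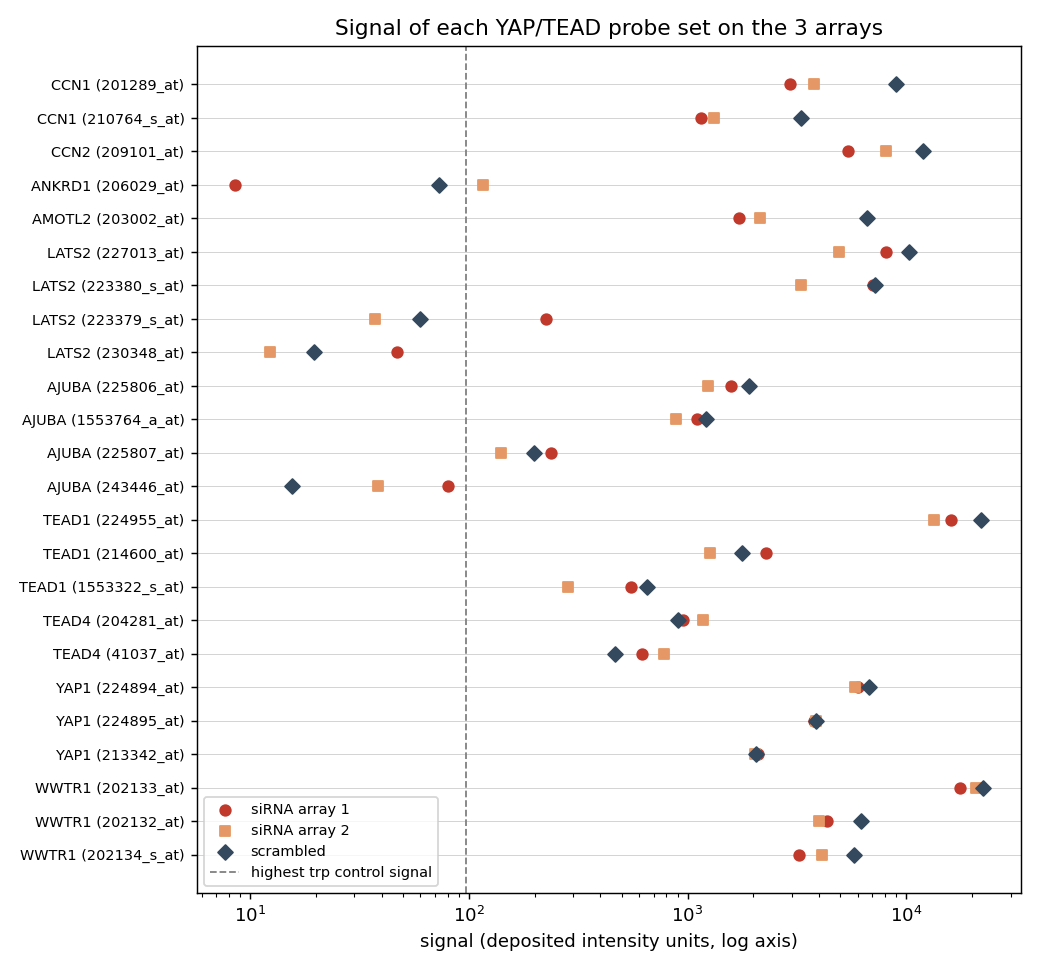
Signal of each of the 24 probe sets (rows, with the gene symbol and probe set) on siRNA array 1, siRNA array 2 and the scrambled array, on a log axis in deposited intensity units. The CCN1 and AMOTL2 points of both siRNA arrays lie well to the left of the scrambled point, and the YAP1 points nearly coincide. The dashed line is the highest signal of the bacterial trp control probe sets, 97.2, which came from the scrambled array.

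CCN1 encodes a secreted matricellular protein that binds integrins and is an early target of YAP. Its brighter probe set (201289_at) read 2956 and 3802 on siRNA arrays 1 and 2, against 8942 on the scrambled array. Its other probe set (210764_s_at) read 1156 and 1325, against 3306. On both probe sets siRNA array 1 was the lower, and neither siRNA array approached the scrambled signal. The log2 differences were -1.40 ± 0.24 (SE; limma adjusted p = 0.0418) and -1.38 ± 0.26 (SE; adjusted p = 0.0477), so that the probe sets gave nearly the same size of change. Both calls were lost with quantile normalization, at adjusted p = 0.0645 and 0.0638, and in 3 other settings in the plot of adjusted p. Over all alternatives the adjusted p ranged over 0.00432 to 0.167 for the brighter and 0.0107 to 0.153 for the other.

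AMOTL2, the angiomotin that tethers YAP at junctions and is itself induced by it, was measured by 1 probe set (203002_at). It read 1722 and 2154 on the siRNA arrays, against 6594 on the scrambled array. This was the largest difference among the 20 probe sets, at -1.75 ± 0.25 on the log2 scale (SE; 95% interval -2.34 to -1.16; limma adjusted p = 0.0277). The call was lost when dim probe sets were kept (adjusted p = 0.119), with the 75th percentile as the filter (0.0572) and with no trend in the model (0.132), and over all alternatives the adjusted p ranged over 0.00153 to 0.132.

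CCN2, formerly CTGF, is a secreted relative of CCN1 that promotes matrix production. It read 5421.5 and 8094 on the siRNA arrays, against 11922 on the scrambled array, or 45.5% and 67.9% of it. Both siRNA arrays were below the scrambled array, with siRNA array 2 between the other arrays. The log2 difference was -0.84 ± 0.27 (SE; 95% interval -1.48 to -0.21) and did not pass (limma adjusted p = 0.146). With arrays centred on their median over all probe sets it was -1.01 and passed, at adjusted p = 0.0344. Centring on the probe sets past the filter, an alternative chosen after seeing the data, gave -1.01 and adjusted p = 0.0909, and over all alternatives the adjusted p ranged over 0.0344 to 0.297.

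ANKRD1, a nuclear ankyrin repeat protein best known in heart muscle and a sensitive YAP target, was below the filter. Its only probe set read 8.5 and 115.7 on the siRNA arrays, against 73.1 on the scrambled array. The bacterial trp controls read 7.0 to 97.2 over the arrays, and the siRNA arrays lay on either side of the scrambled one. With dim probe sets kept in the fit, its limma adjusted p was 0.902.

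LATS2, the kinase that phosphorylates YAP and TAZ, was mainly lower on siRNA array 2. Its brightest probe set (227013_at) read 8054 and 4941 on the siRNA arrays, against 10266 on the scrambled array, a log2 difference of -0.70 ± 0.30 (SE; limma adjusted p = 0.251). The next (223380_s_at) read 7029 and 3318.5, against 7185, so that siRNA array 1 stood at 97.8% of the scrambled signal and siRNA array 2 at 46.2%. The average difference there was -0.57 ± 0.40 (SE; limma adjusted p = 0.481). Among dim probe sets, one read 224.6 and 37.4, against 59.6 on the scrambled array. Another read 47.1 and 12.3, against 19.5. In each of these 4 probe sets siRNA array 2 was below siRNA array 1, the reverse of the order seen for CCN1, CCN2 and AMOTL2.

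AJUBA, a LIM protein that binds LATS kinases and limits their action on YAP, had 4 probe sets. The brightest (225806_at) read 1578 and 1240.5 on the siRNA arrays, against 1910.1 on the scrambled array, with a log2 difference of -0.44 ± 0.27 (SE; limma adjusted p = 0.425). A second (1553764_a_at) read 1110.1 and 886.5, against 1219. Both were lower on the siRNA arrays by less than the model's 95% interval could separate from 0. The third (225807_at) read 237.3 and 140.4, against 198.2, with the scrambled signal between those of the siRNA arrays. A dim probe set read 80.4 and 38.6, against 15.6, all below the highest trp signal of the scrambled array, 97.2. The highest trp signal was 22.3 on siRNA array 1 and 67.0 on siRNA array 2, so 80.4 was above that of its own array.

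**Figure D2:**
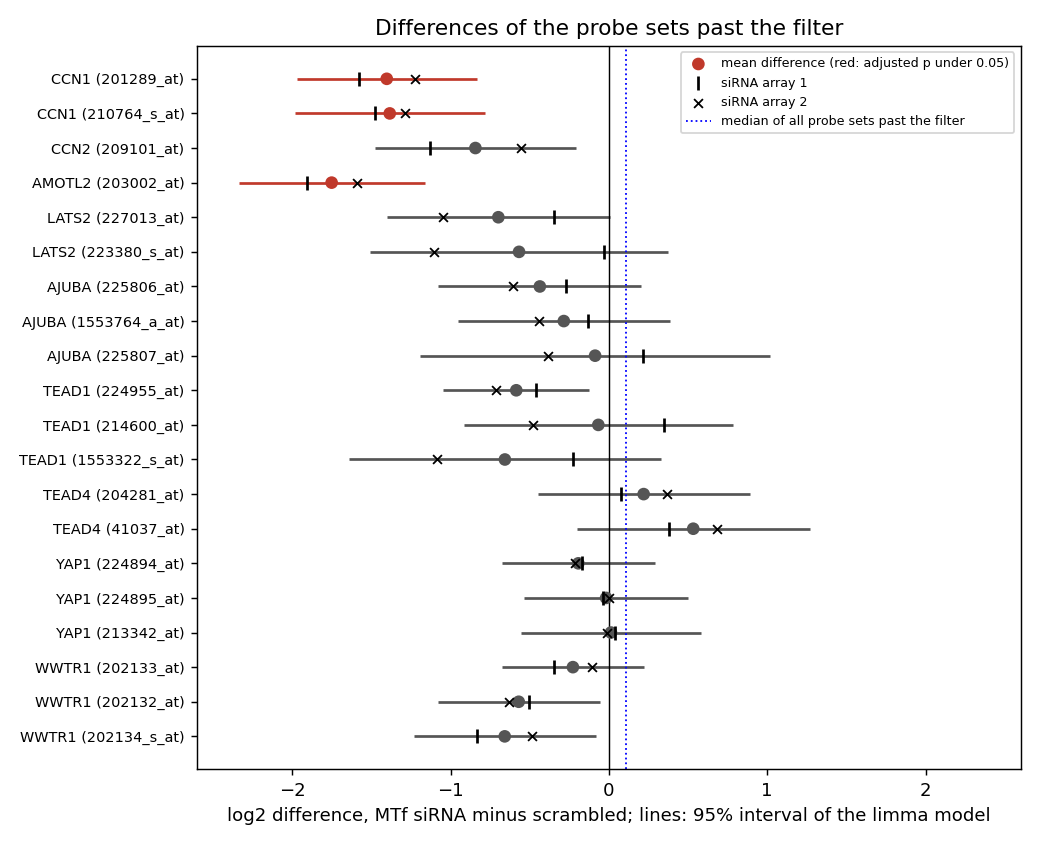
Log2 difference, MTf siRNA minus scrambled, for the 20 probe sets past the filter (rows), as the mean (dot) with its 95% interval from the limma model (line) and each siRNA array's own difference (tick and cross). CCN1 (both probe sets) and AMOTL2 are drawn in red as past an adjusted p of 0.05, the YAP1 probe sets lie at or near 0, and the blue dotted line is the median of all probe sets, 0.11.

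Neither gene for a DNA-binding partner passed the test. TEAD1 read 16050.1 and 13438 in its brightest probe set (224955_at) on the siRNA arrays, against 22052.5 on the scrambled array, a log2 difference of -0.58 ± 0.20 (SE; limma adjusted p = 0.161). Another (1553322_s_at) read 553.2 and 283.6, against 655.5, and differed by -0.66 ± 0.42 (SE; limma adjusted p = 0.435). The third (214600_at) read 2276 and 1263, against 1780, so that the siRNA arrays lay on opposite sides of the scrambled array (log2 difference -0.067 ± 0.36, SE; limma adjusted p = 0.944). The probe sets of TEAD1 thus gave no common size of difference. TEAD4 read 951.6 and 1175 (204281_at), against 901.6, and in its other probe set (41037_at) 621.3 and 776.8, against 465.7. These were the only probe sets of the 20 apart from 1 of YAP1 with a mean difference above 0, at 0.22 ± 0.29 and 0.53 ± 0.31 (SE; limma adjusted p = 0.728 and 0.395). All pairs of TEAD4 signals were higher on the siRNA arrays, and both 95% intervals included 0. On siRNA array 1 the difference of 204281_at, 0.074, was below the median of all probe sets past the filter, 0.087. With arrays centred the TEAD4 differences were 0.050 and 0.36, and with quantile normalization 0.068 and 0.35.

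YAP1, the central coactivator, had nearly equal signals on the 3 arrays in all 3 of its probe sets. The brightest (224894_at) read 6015 and 5827 on the siRNA arrays, against 6773 on the scrambled array. The second (224895_at) read 3774 and 3868, against 3868, and the third (213342_at) read 2105 and 2037, against 2051. Log2 differences were -0.19 ± 0.21, -0.017 ± 0.22 and 0.013 ± 0.24 (SE), with 95% intervals of -0.68 to 0.29, -0.54 to 0.50 and -0.55 to 0.58. The smallest limma adjusted p was 0.661. The last 2 differences lay near 0, and their sign turned under several choices. With quantile normalization they became 0.0029 and -0.040, and with siRNA array 1 left out 0.00018 and -0.010. With arrays centred probe set 224895_at stayed below 0, at -0.19, and probe set 213342_at gave -0.16. The brightest probe set, 224894_at, moved further from 0 there, to -0.36, and did not pass (limma adjusted p = 0.550).

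WWTR1, which encodes TAZ, the paralogue of YAP1, was below the scrambled array on both siRNA arrays in each of its 3 probe sets. The brightest (202133_at) read 17668 and 20826, against 22459.9 on the scrambled array, and differed by -0.23 ± 0.19 (SE; limma adjusted p = 0.559). The second (202132_at) read 4339.8 and 3974, against 6186, and differed by -0.57 ± 0.22 (SE; limma adjusted p = 0.206). The third (202134_s_at) read 3228 and 4128, against 5787, and differed by -0.66 ± 0.24 (SE; limma adjusted p = 0.196). The brightest probe set differed least, and none of the 3 passed.

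Among YAP/TAZ target genes, a list of 22 drawn from general knowledge of the pathway that includes 5 of the genes described, 16 were past the filter. The list was made with earlier results of these data known. Its counts and median beside those of all genes are therefore a description only. AMOTL2, CCN1, MYOF and GADD45A fell, 0 rose and 12 did not pass, beside 1.14% of 12386 genes called lower, 1.5% called higher and 2.64% in all (each gene by its brightest probe set). MYOF, a ferlin of membrane repair and fusion, read 18703.5 and 19963 on the siRNA arrays, against 42572.5 on the scrambled array, and fell by 1.14 on the log2 scale (limma adjusted p = 0.0307). A second MYOF probe set fell by 1.48 (adjusted p = 0.0260), and a dimmer probe set read 202.2 and 360.0, against 844.8 (adjusted p = 0.105). GADD45A, a growth arrest gene induced by many stresses, read 12014 and 10655.5, against 30111, and fell by 1.41 (adjusted p = 0.0255). An unadjusted p under 0.05 was seen for 7 of the 16 genes, against 22.9% of all genes. The median difference of the 16 genes was -0.55 (-0.88 on siRNA array 1 and -0.65 on siRNA array 2), beside 0.097 over all genes. NUAK2 was not analysed here, and ANKRD1, FJX1, CCDC80, ARHGEF17 and TGFB2 were below the filter. GADD45A is also a p53 target, and the list's genes answer to other pathways as well.

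In the CCN family, 3 of 6 genes passed the filter, of which CCN1 fell and CCN2 and CCN3 did not pass. Of all genes 1.14% were called lower. CCN3 read 127.2 and 170.6 on the siRNA arrays, against 303.2 on the scrambled array (log2 difference -0.85 ± 0.44, SE; limma adjusted p = 0.340). A second CCN3 probe set, singled out after its values were seen, read 16.1 and 14.7, against 649.6, and did not pass the filter. The family median was -0.85.

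**Figure D3:**
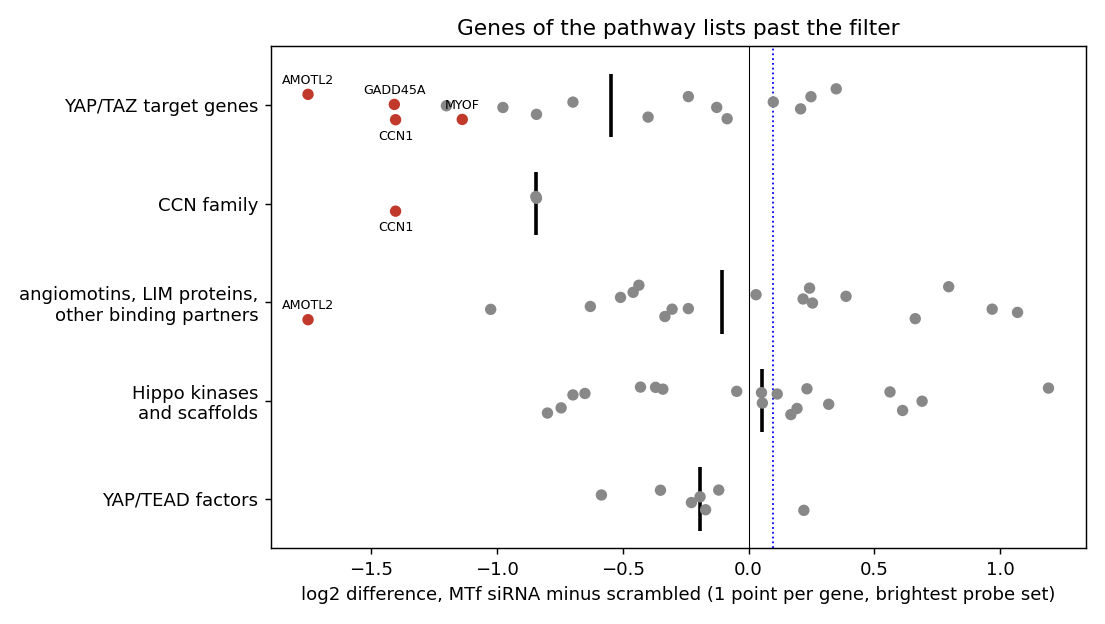
Log2 difference, MTf siRNA minus scrambled, for genes past the filter in 5 pathway lists (rows; 1 point per gene, vertical bar the list median, red for an adjusted p under 0.05, vertical spread only to separate points). The named red points AMOTL2, CCN1, GADD45A and MYOF lie below 0, the kinases scatter around it, TEAD4 is the 1 factor above it, and the blue dotted line is the median of all genes, 0.097.

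The Hippo kinases and scaffolds had 0 genes called by limma of 19 past the filter (25 listed). An unadjusted p under 0.05 was seen for 5 of them, against 22.9% of all genes. TAOK2, a kinase upstream of the Hippo kinases, read 517.7 and 505.1 on the siRNA arrays, against 197.1 on the scrambled array (log2 difference 1.19 ± 0.34, SE; limma adjusted p = 0.116). A second TAOK2 probe set differed by only 0.31 ± 0.44 (adjusted p = 0.755). MAP4K5, another upstream kinase, differed by -0.80 ± 0.24 (adjusted p = 0.124) in its brightest probe set and by -0.47 and -0.18 in the others. The large cadherin FAT1 differed by -0.74 ± 0.23 (SE; adjusted p = 0.136). The list median was 0.055, and -0.11 with arrays centred.

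Among angiomotins, LIM proteins and other binding partners, 18 of 20 genes were past the filter, of which 1, AMOTL2, fell and 0 rose. Of all genes 1.14% were called lower and 1.5% higher. An unadjusted p under 0.05 was seen for 6 of the 18, against 22.9% of all genes. AMOTL1, its paralogue, read 3581 and 3520.1 on the siRNA arrays, against 7271 on the scrambled array (log2 difference -1.02 ± 0.22, SE; limma adjusted p = 0.0631). Its other 3 probe sets differed by between -1.17 and -0.47, and none passed. PALS1, a polarity scaffold, read 2254 and 2712, against 1154 (1.07 ± 0.26, SE; limma adjusted p = 0.0811). LIMD1, a relative of AJUBA, read 6053 and 6404.5, against 3159 (0.97 ± 0.21, SE; limma adjusted p = 0.0700), whereas other LIMD1 probe sets past the filter differed by 0.59 and -0.034. The list median was -0.11, and -0.27 with arrays centred.

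Of the 10 YAP/TEAD factors and VGLL cofactors, 7 were past the filter and 0 were called by limma. By the brightest probe set of each gene 1 of the 7, TEAD1, had an unadjusted p under 0.05, against 22.9% of all genes, and dimmer probe sets of WWTR1 did as well. VGLL2, a TEAD cofactor of muscle, read 185.6 and 195.9 on the siRNA arrays, against 256.1 on the scrambled array (log2 difference -0.35 ± 0.41, SE; limma adjusted p = 0.696). VGLL3, which also binds TEADs, was below the filter and is named after its values were seen: it read 40.1 and 51.3, against 300.2. The list median was -0.19, and -0.36 with arrays centred.

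The 5 genes outside the 10 whose differences lay nearest to those of CCN1 included NEFL, PPP2R3A, TBX2 and TRIM9. Likeness was the Euclidean distance over the 2 differences of the siRNA arrays from the scrambled array, and it ranged over 0.051 to 0.107 log2 units for these 5 genes. Both differences share the scrambled array, so these distances are a description only. TBX2, a T-box repressor of the melanocyte lineage, read 1100.0 and 1302 on the siRNA arrays, against 3225 on the scrambled array.

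**Figure D4:**
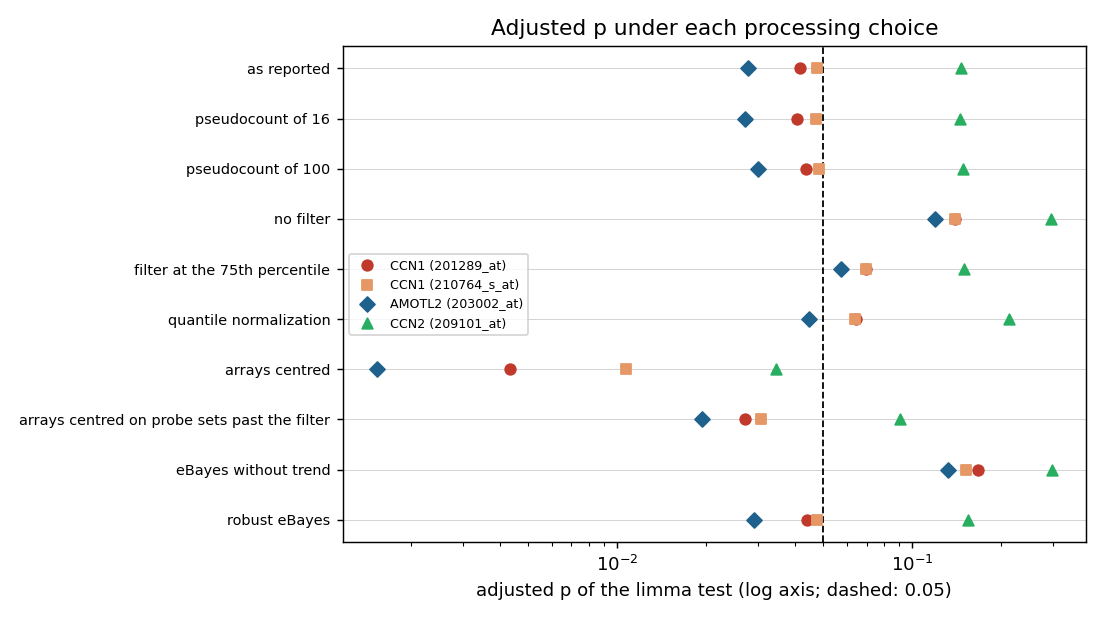
Adjusted p of the limma test (log axis, dashed line at 0.05) for both CCN1 probe sets, AMOTL2 and CCN2 under each processing choice (rows). The CCN1 and AMOTL2 points cross the line without a filter, with the stricter filter and with no trend in the model, the CCN1 points also with quantile normalization, and the CCN2 point lies below it only with arrays centred over all probe sets.

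By the brightest probe set of each gene, melanocyte markers were bright on all arrays. The 8 genes summed to 261000 and 284600 on the siRNA arrays, against 322100 on the scrambled array. TYRP1 was the 1 that fell, and 0 of 8 rose. The lower sums came mostly from TYRP1, at 5022 and 12370, against 53204. MITF (42992 and 34223, against 52684) and MELTF (18968 and 18974, against 32608) were also dimmer on both siRNA arrays. MELTF, the hairpin's own target, is among the 8. MLANA and TYR were brighter on both siRNA arrays. A second probe set of TYR rose, at 24678 and 22086, against 10796 (limma adjusted p = 0.0383), beside an adjusted p of 0.0529 for the brightest and 0.868 for the dimmest. Epithelial markers summed to 8645 and 7609, against 16590 (8 genes, 1 of 3 past the filter lower). That sum was mostly ESRP1, at 5567 and 4656, against 14486, while KRT18 was brighter on the siRNA arrays, at 2483 and 2148.5, against 1308, and did not pass (limma adjusted p = 0.142). Fibroblast markers summed to 7767 and 8223, against 3010 (8 genes, 1 of 5 higher, LUM, with COL3A1 at 45.2 and 60.7 against 59.1). The higher sums were mostly LUM, at 4850 and 4841, against 598.6. Its other probe set, below the filter, read 171.2 and 138.9, against 139.8. COL1A1, COL1A2 and THY1 were dimmer on both siRNA arrays, and TWIST1 and PDGFRA were brighter on both. COL1A2 (119.8 and 86.2, against 136.2) and PDGFRA (75.5 and 97.3, against 74.0) were below the filter, with signals near those of the trp controls. Leukocyte markers summed to 893.0 and 781.3, against 1666 (5 genes, 0 of 2 called by limma, LCP1 at an unadjusted p under 0.05), and endothelial markers to 467.5 and 756.6, against 586.2 (6 genes, 0 of 1, and 0 at an unadjusted p under 0.05). Of all genes past the filter 1.14% were called lower and 1.5% higher. In order, the medians of these marker lists were 0.0076, -0.84, -0.12, -0.76 and 0.57. Unlike the sums, these medians cover only genes past the filter. The leukocyte median rests on 2 genes, and the endothelial one is PECAM1 alone (limma adjusted p = 0.487). Other PECAM1 probe sets were below the filter. PTPRC, CD14, EPCAM and CDH5 read below 97.2 on all arrays, whereas CD3E (146.6 and 129.0, against 170.7) and GRHL2 (173.8 and 177.6, against 112.3) read above it on all. That level is the highest trp signal of the scrambled array. On siRNA array 1, EPCAM (87.1) and PTPRC (24.2) read above that array's own highest trp signal, 22.3. VWF read 50.2 and 72.4, against 207.0, and KDR 64.1 and 156.6, against 43.7. No marker was at 0. The part of these differences in those of CCN1 and AMOTL2 was not tested.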

How the data were processed

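Total RNA from the 3 SK-Mel-28 samples was measured on Affymetrix Human Genome U133 Plus 2.0 arrays. The deposited values are signal intensities per probe set, made by the authors with GCOS 1.3, per the submitters' processing notes. Their trimmed means were 1000.12, 1000.13 and 1000.14, so the authors had scaled them alike. The genome build and other settings were not given in the sources used here. Detection calls were not used. From these, log2(signal + 47.4) was computed, the pseudocount being the 25th percentile of all signals, and fold changes on this scale understate those of dim probe sets. After 62 control probe sets were left out, those whose average log2 value exceeded the median (7.74) were tested with limma 3.58.1 in R 4.3.3 (lmFit, eBayes with trend). The fit has 1 residual degree of freedom, from the siRNA arrays, and the moderation added 6.36. The scrambled array is assumed to vary like them. The scrambled array has no replicate, and the number of arrays limits the precision. The code was tested on simulated data.

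The platform annotation named 1 gene for 41091 probe sets, several for 1801 and none for 11721. No probe set naming several genes named 1 of the 10. Entrez identifiers were matched to the GRCh38.p14 gene table for symbols. Genes were named by rule: the 10 members and MELTF in all probe sets, list genes past the threshold or, with fewer than 4, those of largest difference up to 4, and the 5 genes nearest to CCN1, of which 1 is not reported here. Members and lists were chosen with earlier results of these data known. Alternatives were other pseudocounts (16 and 100), filters, normalizations, models of the spread, and leaving out each siRNA array. There were 0 value columns of other samples.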

Additional observations from a re-analysis of the deposited data

Results flagged for a closer look

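The array's control probe sets for ribosomal RNA, used in no comparison, had a median signal on siRNA array 1 of 3.76 times that of the scrambled array (6 probe sets), and on siRNA array 2 of 1.06 times. CCN1, CCN2 and AMOTL2 were lower on siRNA array 1 than on siRNA array 2, and LATS2, AJUBA and TEAD1 were higher. The part of the control difference in these was not tested.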

How the results depend on the processing

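No paired analysis was possible, because there was 1 scrambled array and no label paired it with either siRNA array. Probe sets called lower among the 20 numbered 3 as reported, 0 with dim probe sets kept, 0 with the filter at the 75th percentile, 0 with eBayes without trend and 1 (AMOTL2) with quantile normalization. Over all probe sets, 324 were called higher and 247 lower. These became 1 and 0 with dim probe sets kept, 6 and 3 with the filter at the 75th percentile, 209 and 159 with quantile normalization, 594 and 934 with arrays centred, and 1 and 0 with eBayes without trend. Centring on probe sets past the filter, chosen after seeing the data, gave 254 higher and 468 lower. Probe sets at least 2-fold lower were 3 on both siRNA arrays, and between 4 and 6 with 1 siRNA array left out. Leaving out an array leaves no residual degree of freedom, so adjusted p-values and counts of calls could not be had there. For CCN1 the differences ranged over -1.58 to -1.22 (201289_at) and -1.55 to -1.29 (210764_s_at) in the alternatives, and for AMOTL2 over -1.92 to -1.59. Differences near 0 changed sign. YAP1 gave 0.0029 (224895_at) and -0.040 (213342_at) with quantile normalization, and 213342_at gave -0.16 and -0.15 with the 2 centrings. With 1 siRNA array left out the ranges were -0.035 to 0.00018 and -0.010 to 0.037 for these, -0.39 to 0.21 for AJUBA (225807_at) and -0.48 to 0.35 for TEAD1 (214600_at). Probe sets of the fit with no filter include those near background, and a filter changes which probe sets are tested; otherwise the cause was not tested.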
